A study of Mus musculus with 2 samples.

Results

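The 10 genes described here encode costimulatory and coinhibitory surface molecules of B cells: Cd80, Cd86, Icosl, Cd83, Cd274, Pdcd1lg2, Btla, Tnfrsf14, Cd200 and Cd52. They were chosen by gene symbol from 18193 named genes on the array and had 15 probe sets in all. Their RNA was measured in B cells of mice on the NOD background, a diabetes-prone inbred strain, that did or did not carry human AIRE as a transgene. The AIRE transgenic group was 1 Affymetrix array of RNA from 2 transgenic mice 8 weeks old, whose transgene was driven by an MHC class II promoter. The non-transgenic group was 1 array of RNA from 2 NOD mice of the same age without the transgene. Both groups were sorted as cells that lack Thy1 and CD11c and carry B220. Class II promoters are active in antigen-presenting cells of several kinds, so the transgene may not have been limited to B cells. With 1 array of pooled RNA in each group there is no replicate check, no test and no error between animals. Every difference below is one between these 2 arrays.

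B cells that present antigen to T cells also supply second signals that set the outcome of the contact. CD80 and CD86 bind CD28, which promotes T cell activation, and CTLA-4, which restrains it, while ICOS ligand binds ICOS and supports follicular helper T cells. CD83 is a maturation marker that helps keep CD86 and MHC class II at the cell surface. PD-L1, encoded by Cd274, and PD-L2, encoded by Pdcd1lg2, bind the inhibitory receptor PD-1. BTLA is itself an inhibitory receptor of B and T cells that binds HVEM, the product of Tnfrsf14, and CD200 binds an inhibitory receptor found mainly on myeloid cells. Cd80, Cd86, Icosl and Cd83 are called activating here and Cd274, Pdcd1lg2, Btla and Cd200 inhibitory. Tnfrsf14, whose product can pass signals of both kinds, and Cd52, which encodes a small lipid-anchored glycoprotein of lymphocytes, were put in neither class.

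The promoter windows below belong to Btla, Icosl and Cd200, the 3 members lower by at least 1.5-fold in transgenic cells, and, for contrast, to Cd274, which was higher. RefSeq promoter windows of build GRCm38.p6, running from 250 bases before to 50 bases after the start, matched 7 of the 10 members. Those of Cd86, Cd83 and Cd52 are not given. Each sequence is written 5′ to 3′ on the strand of its gene, with matches to the motifs searched in capitals.
Btla, chr16:45224087-45224386, plus strand: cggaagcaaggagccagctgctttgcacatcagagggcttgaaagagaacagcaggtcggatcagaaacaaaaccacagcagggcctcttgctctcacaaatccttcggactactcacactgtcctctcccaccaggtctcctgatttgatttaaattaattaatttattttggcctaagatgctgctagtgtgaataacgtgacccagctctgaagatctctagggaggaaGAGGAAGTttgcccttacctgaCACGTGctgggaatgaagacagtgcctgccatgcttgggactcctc
Icosl, chr10:78069118-78069417, plus strand: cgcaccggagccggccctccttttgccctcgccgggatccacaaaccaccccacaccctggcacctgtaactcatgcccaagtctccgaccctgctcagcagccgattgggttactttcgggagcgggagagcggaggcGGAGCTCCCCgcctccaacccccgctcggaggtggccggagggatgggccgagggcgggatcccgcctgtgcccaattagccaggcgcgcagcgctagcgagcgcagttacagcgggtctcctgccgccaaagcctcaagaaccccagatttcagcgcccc
Cd200, chr16:45409004-45409303, minus strand: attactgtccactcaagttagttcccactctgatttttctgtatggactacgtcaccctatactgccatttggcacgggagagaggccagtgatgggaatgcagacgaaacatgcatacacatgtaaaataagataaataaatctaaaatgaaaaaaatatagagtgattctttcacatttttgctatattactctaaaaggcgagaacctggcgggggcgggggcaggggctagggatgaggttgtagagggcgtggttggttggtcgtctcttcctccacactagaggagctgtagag
Cd274, chr19:29367188-29367487, plus strand: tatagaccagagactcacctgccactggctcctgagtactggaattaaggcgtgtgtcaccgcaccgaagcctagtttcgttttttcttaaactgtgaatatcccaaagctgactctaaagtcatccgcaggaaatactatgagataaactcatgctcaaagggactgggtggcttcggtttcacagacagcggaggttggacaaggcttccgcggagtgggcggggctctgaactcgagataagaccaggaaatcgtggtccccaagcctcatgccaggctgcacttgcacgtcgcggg
In the Btla window the capitals mark a match to GAGGAAGT, a core bound by the Ets factor PU.1, and one to the E-box CACGTG. Their first bases lie 18 bases before and 4 bases after the start, and no other motif searched overlapped them. In the Icosl window they mark a match to the NF-kB consensus. Both strands were searched for these 3 motifs and for the core of the interferon-stimulated response element, the gamma-activated site TTCNNNGAA and the octamer ATTTGCAT. The Cd200 and Cd274 windows held none of the 6, which says only that these letters are not in these windows. Of 27025 promoters of 300 bases, 3.28% held the PU.1 core, 7.24% the E-box, 8.18% the NF-kB consensus, 3.49% the response element core, 8.47% the gamma-activated site and 1.75% the octamer. Among the other members, the Pdcd1lg2 window held the NF-kB consensus and the Tnfrsf14 window the response element core. The Cd80 window held none.

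The deposited intensities are linear, and their median was 93.1 for the transgenic array and 104.3 for the non-transgenic one. Both arrays were therefore brought to the pooled median first. Intensities below are these aligned values. Log2 ratios have the transgenic array on top. Any value under 25.1, the pooled 25th percentile, was raised to it as a floor, and a gene is represented by its probe set of highest mean level. The intensity filter was the pooled median, 98.8, and 10778 named genes reached it on at least 1 array. The log2 ratios of these genes had a median of 0.19 and an SD of 0.58, and the median was 0.01 with no alignment, 0.05 with quantile normalization and 0.03 with loess on the mean level. Ratios are therefore also placed among those of all genes above the filter. The mouse Aire probe set, at 89.7 in transgenic and 86.9 in non-transgenic cells, lay under the filter. Whether it reads human AIRE is not known here, and it is no check of the labels.

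Most of the surface molecules were lower on the transgenic array, and the 2 exceptions came from opposite classes. Of the 10 genes 9 lay above the filter, 7 with a ratio under 0 (Btla, Icosl, Cd200, Cd52, Pdcd1lg2, Cd80 and Cd83) and 2 with a ratio over 0 (Cd86 and Cd274), where 35.1% of all genes above the filter had a ratio under 0. That share was higher under the other scalings, at 48.8% with no alignment, 45.9% with quantile normalization and 46.9% with loess. None of the 9 was at least 2-fold higher, a size that 4.43% of all genes above the filter reached, and none was at least 2-fold lower, which 3.19% reached. Those shares stand for 477 genes higher and 344 lower. The split turned with the scaling, to 292 higher and 514 lower with no alignment, 377 and 407 with quantile normalization and 383 and 405 with loess. At 1.5-fold after median alignment, Cd86 was higher, against 17.4% of all genes, and Btla, Icosl and Cd200 were lower, against 8.42% of all genes. With no alignment Cd52 was lower by at least 1.5-fold too (-0.70). The 1.5-fold shares were not counted under the other scalings. The median log2 ratio of the 9 was -0.33, which lies 0.52 below the median of all genes above the filter. The signs of all 9 were the same as deposited, with quantile normalization and with loess. In bulk RNA, fewer cells that carry a transcript and less of it per cell cannot be told apart.

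**Figure D1:**
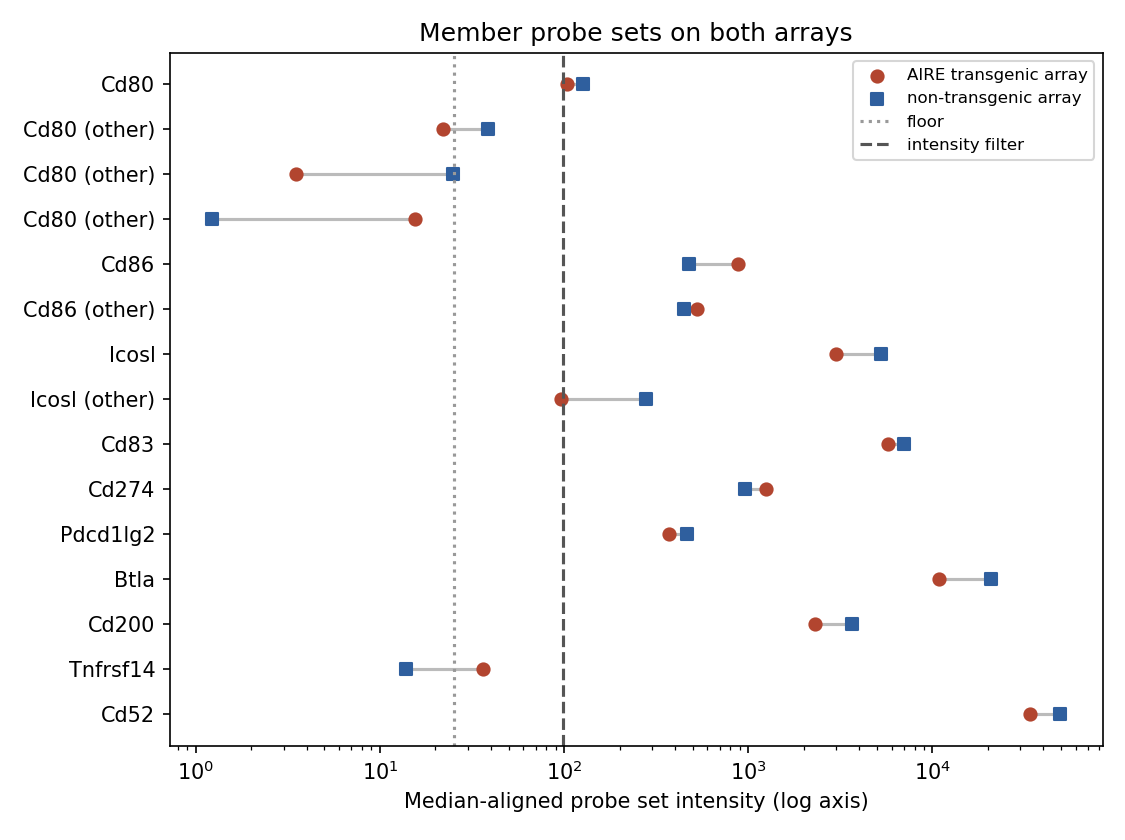
Median-aligned intensities of the 15 member probe sets on a log axis, with circles for the AIRE transgenic and squares for the non-transgenic array, and lines for the floor (25.1) and the intensity filter (98.8). "Other" marks probe sets that do not represent their gene. The circles lie left of the squares for Icosl, Cd80 (representing), Cd83, Pdcd1lg2, Btla, Cd200 and Cd52 and right of them for Cd86 and Cd274.

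Among the activating ligands, Cd86 had the highest ratio of the 9 members by its representing probe set, but it ranked below Cd274 by its other probe set. Its representing probe set read 879 in transgenic and 475 in non-transgenic cells, 1.85-fold higher (log2 ratio 0.89). Of all genes above the filter, 6.29% had a higher ratio, and among the 4146 genes within 2-fold of its mean level the middle 90% of ratios ran from -0.60 to 0.87, so Cd86 stood just above that range. Its other probe set, annotated to the same transcript, differed much less, at 525 in transgenic and 449 in non-transgenic cells (0.23), and 46.7% of genes had a higher ratio than that. The probe sets thus gave one direction and different sizes, 0.66 apart on the log2 scale. Over 5172 genes with at least 2 probe sets above the filter, the 2 brightest differed by a median of 0.36, and 24.6% of these genes differed by more than Cd86 did.

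Cd80, the partner of Cd86 in binding CD28 and CTLA-4, was close to the filter. Its representing probe set read 103 in transgenic and 127 in non-transgenic cells (-0.30). That ratio lay well inside the middle 90% of genes of like level, which ran from -1.24 to 1.36. The other 3 probe sets of Cd80 were under the filter on both arrays, and 2 of them were under the floor on both, so they carry no ratio. The log2 ratio of Cd86 exceeded that of Cd80 by 1.19, and by 1.06 to 1.19 over the 4 scalings.

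Icosl was lower in both of its probe sets. The representing probe set read 3010 in transgenic and 5278 in non-transgenic cells, 1.75-fold lower (-0.81), and only 4.72% of genes had a lower ratio. The middle 90% of 1976 genes of like level ran from -0.49 to 0.81, which leaves Icosl below it. The other probe set was at 95.8 on the transgenic array, just under the filter, and at 277 on the non-transgenic array, 2.89-fold lower (-1.53). The ratios of the probe sets were 0.72 apart, and 21.2% of genes with at least 2 probe sets differed by more. The representing probe set passed 2-fold after quantile normalization (-1.001) and after loess (-1.02).

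Cd83 read 5768 in transgenic and 6995 in non-transgenic cells (-0.28). The middle 90% of genes of like level ran from -0.49 to 0.79, and Cd83 lay inside it.

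Among the inhibitory molecules, Btla had the lowest ratio. Over all 9 members it was lowest after median alignment and with no alignment, while Icosl was lower than Btla with quantile normalization, loess, the average over its probe sets or the probe set of median ratio. Its only probe set read 10855 in transgenic and 20841 in non-transgenic cells, 1.92-fold lower (-0.94), and 3.53% of all genes above the filter had a lower ratio. The 337 genes within 2-fold of its level had ratios from -0.56 to 0.66 in their middle 90%, so that Btla lay below them. Without the alignment it passed 2-fold (-1.10), and it was at -0.996 after quantile normalization and -0.96 after loess. Its ligand gene Tnfrsf14 was at 36.1 in transgenic and 13.9 in non-transgenic cells, under the filter on both, and no ratio is read from it.

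Cd200, the ligand of the myeloid inhibitory receptor, was lower as well. It read 2291 in transgenic and 3679 in non-transgenic cells, 1.61-fold lower (-0.68), and 6.66% of genes had a lower ratio. Its ratio lay below the middle 90% of 2702 genes of like level, -0.49 to 0.82. In the RefSeq gene order of GRCm38.p6, Btla and Cd200 are neighbours on chromosome 16 with 0 protein-coding genes between them. The gene on the other side of Btla, Atg3, was not lower, at 4217 in transgenic and 3542 in non-transgenic cells (0.25).

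The PD-1 ligands had ratios of opposite sign. Cd274 read 1254 in transgenic and 959.7 in non-transgenic cells, 1.31-fold higher (0.39). With 32.3% of genes at a higher ratio, it stood 0.20 above the median of all genes and well inside the middle 90% of genes of like level, -0.53 to 0.85. Pdcd1lg2 read 370.3 in transgenic and 465 in non-transgenic cells (-0.33), also inside the range of its level, -0.67 to 0.92. The genes are neighbours on chromosome 19, and the log2 ratio of Cd274 exceeded that of Pdcd1lg2 by 0.71, and by 0.63 to 0.71 over the 4 scalings. The gene on the other side of Cd274, Plgrkt, was higher, at 5106 in transgenic and 2921 in non-transgenic cells (0.81). Ric1, on the other side of Pdcd1lg2, was at 515 in transgenic and 579 in non-transgenic cells (-0.17).

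Cd52, whose shed product restrains T cells through a Siglec receptor in humans, read 33941 in transgenic and 49358.5 in non-transgenic cells (-0.54). Of all genes 9.37% had a lower ratio, but the 92 genes of like level were themselves lower, with a median of -0.28 and a middle 90% from -0.73 to 0.20, and Cd52 lay inside that range. Its ratio was -0.27 after quantile normalization and -0.40 after loess, under which 25.2% and 18.5% of genes were lower still. The ratio of Cd52 thus depended on how the brightest probe sets were scaled, while its sign did not.

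**Figure D2:**
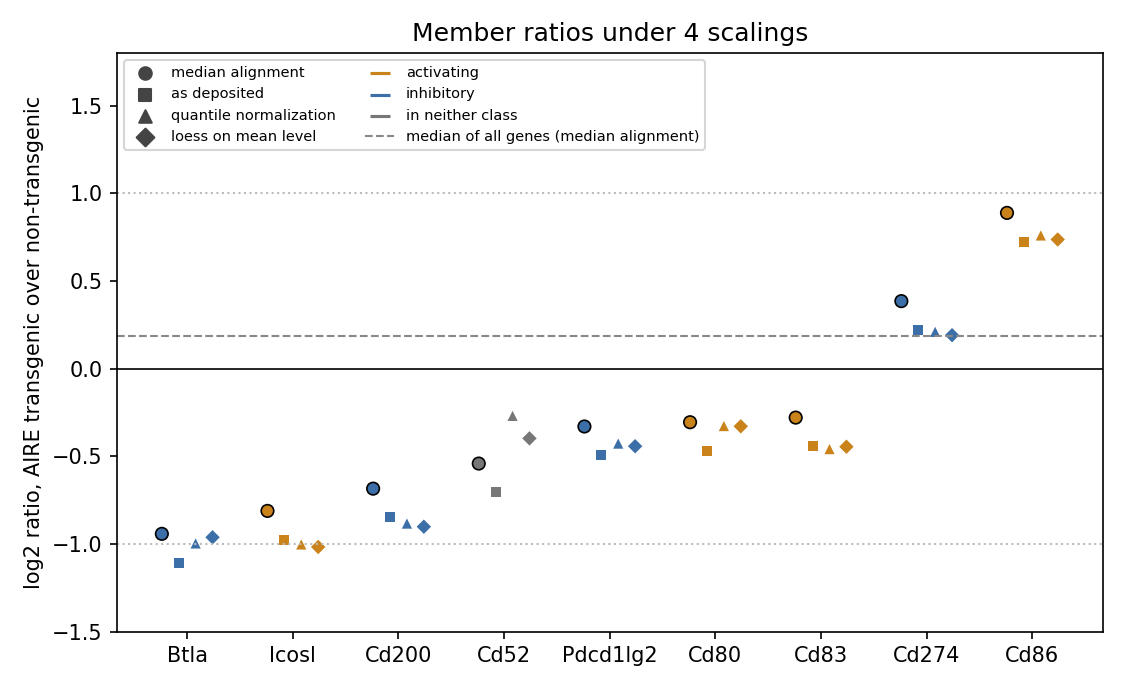
Log2 ratio, AIRE transgenic over non-transgenic, of the 9 members above the filter under 4 scalings, ordered by the ratio after median alignment. Colours give the class, dotted lines mark 2-fold and the dashed line the median of all genes above the filter after median alignment (0.19). Cd86 and Cd274 lie above 0 and the other 7 below 0 under each scaling.

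**Figure D3:**
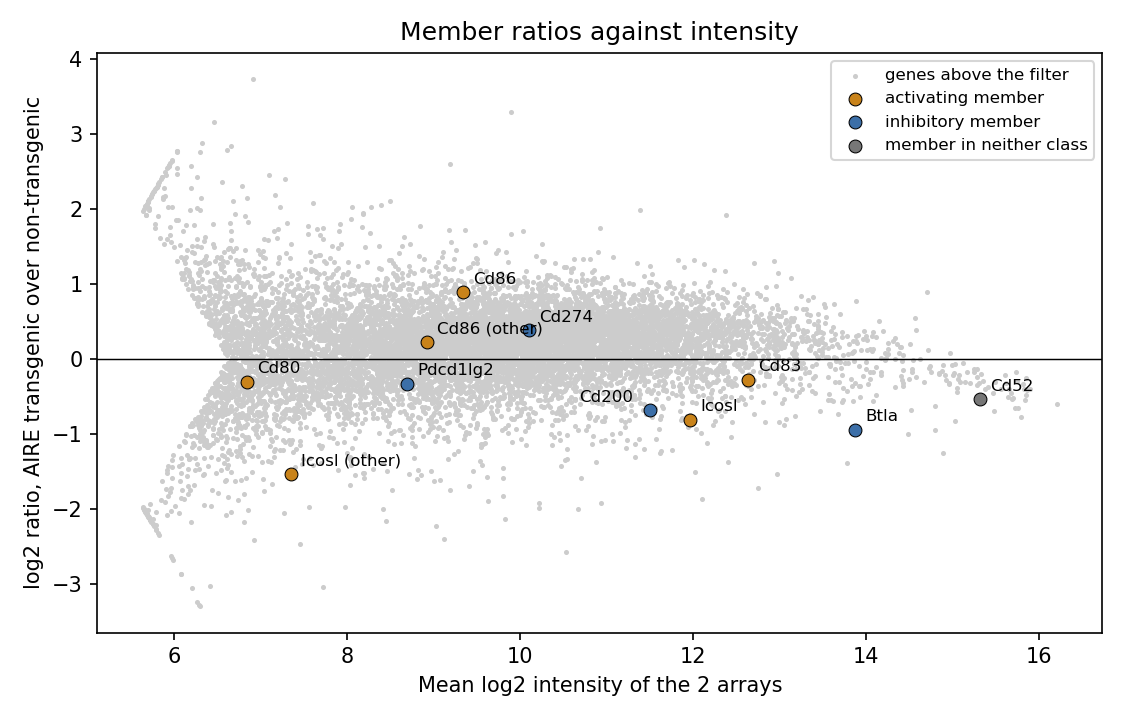
Log2 ratio, AIRE transgenic over non-transgenic, against the mean log2 intensity of the arrays for all genes above the filter (grey) and the member probe sets above it (coloured by class). Btla, Icosl and Cd200 lie at the lower edge of genes of their level. The representing probe set of Cd86 lies at the upper edge and its other probe set near the middle. Cd52 lies among bright genes that were themselves lower.

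Ratios of activating and inhibitory molecules overlapped on these arrays. Of the 4 activating genes 3 had a ratio under 0 and 1, Cd86, had a ratio over 0, and of the 4 inhibitory genes 3 had a ratio under 0 and 1, Cd274, had a ratio over 0. The median log2 ratio was -0.29 for the activating genes, with a range from -0.81 to 0.89, and -0.51 for the inhibitory genes, with a range from -0.94 to 0.39. The classes overlapped over most of their range, and each held both a gene that was lower by at least 1.5-fold and a gene with a ratio above the median of all genes. With Tnfrsf14 and Cd52 counted as inhibitory, 5 genes were above the filter and their median was -0.54.

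**Figure D4:**
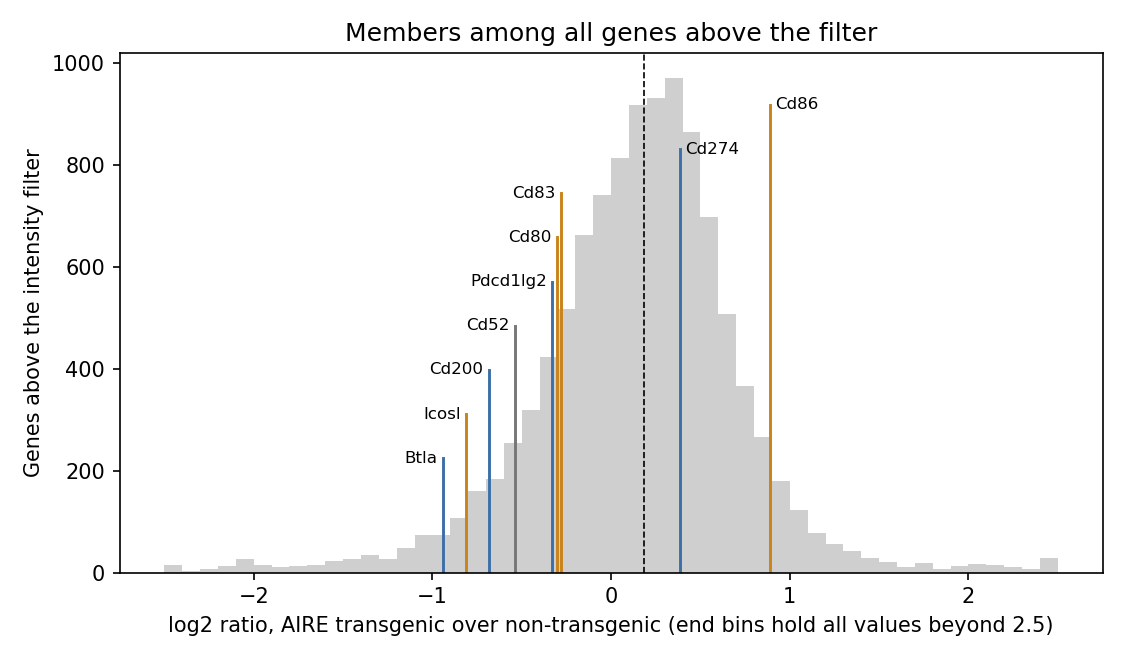
Histogram of log2 ratios, AIRE transgenic over non-transgenic, of the 10778 genes above the filter, with the median (0.19) dashed and the 9 members marked by lines coloured by class as activating (orange), inhibitory (blue) or neither (grey). The height of a member's line has no meaning. Btla, at -0.94, is the member farthest left after median alignment and Cd86, at 0.89, the one farthest right, and lines of both classes lie on both sides of the median.

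Receptors through which these molecules act on other cells were mostly dim. The lists of related genes were short. Of all genes above the filter, only 4.43% were at least 2-fold higher and 3.19% lower. Few genes past 2-fold in such lists is therefore no result about them. Of the 10 named receptors and partners of the members, 4 lay above the filter, none was 2-fold apart and the median was -0.13, against 0.19 over all genes. Siglecg, an inhibitory Siglec of B cells, was at 10047 in transgenic and 14663 in non-transgenic cells (-0.55). Cd28, whose product on T cells binds CD80 and CD86, was at 435 in transgenic and 337 in non-transgenic cells (0.37). The other probe set of Cd28 was at -0.10. A list of 6 other ligand genes held B7 and butyrophilin family members and Lgals9, which is of neither family. Of these, 3 lay above the filter with none 2-fold apart. Their median of 0.17 is the ratio of Lgals9. Lgals9, which encodes galectin-9, was at 3163 in transgenic and 2803 in non-transgenic cells (0.17, but -0.02 after quantile normalization and -0.04 after loess). Vsir, which encodes the inhibitory B7 family ligand VISTA, was at 583 in transgenic and 402 in non-transgenic cells (0.54). Btnl2, of the butyrophilin family, was named after its values were seen and was at 131 in transgenic and 226 in non-transgenic cells (-0.78).

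Of 6 genes for TNF family ligands and CD40, 3 lay above the filter, with a median of -0.39 and none 2-fold apart. Cd40, which receives T cell help, was at 3280 in transgenic and 4306 in non-transgenic cells (-0.39), but its other probe sets were at 0.05 and 0.33. Tnfsf9, the ligand of 4-1BB, was at 175 in transgenic and 166 in non-transgenic cells (0.07, but -0.09 without the alignment). Tnfsf4, which encodes OX40 ligand, was named after its values were seen. It was at 92.0 in transgenic and 181 in non-transgenic cells (-0.98), under the filter on the transgenic array. With quantile normalization, loess or no alignment it passed 2-fold.

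The inhibitory receptors of B cells outside the members had a median of -0.09 over 10 genes, with 8 under 0 and none 2-fold apart. Of all genes above the filter 35.1% had a ratio under 0, and 48.8% with no alignment. Cd22, a Siglec that dampens antigen receptor signals, was at 18639 in transgenic and 29840 in non-transgenic cells (-0.68), and Siglecg is given above. The activating coreceptors had a median of -0.19 over 8 genes, 4 of them under 0 and 1 lower by 2-fold or more. That one was Cd79a, which encodes part of the B cell receptor's signalling module, at 19609 in transgenic and 46825 in non-transgenic cells (-1.26). Adhesion and other accessory ligands had a median of -0.04 over 10 genes with none 2-fold apart. Among these, Cd24a was at 22349 in transgenic and 25227 in non-transgenic cells (-0.17), and Tnfrsf13b, the receptor TACI, at 7757 in transgenic and 8971 in non-transgenic cells (-0.21). Icam1, which encodes the adhesion ligand of LFA-1, was named after its values were seen and was higher, at 2842 in transgenic and 1597 in non-transgenic cells (0.83).

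Markers of B cells and of other cells also differed between the arrays. All 5 named B cell markers had a ratio under 0, as 35.1% of all genes above the filter did. Their median was -0.38, and -0.44 after quantile normalization and -0.46 after loess. Their intensities summed to 101406 in transgenic and 157397 in non-transgenic cells, and the largest part of that difference was Cd79a, given above. Ptprc, which encodes CD45 and is not limited to B cells, is among the 5. Ms4a1, which encodes CD20, was at 29789 in transgenic and 38866 in non-transgenic cells (-0.38, but -0.14 after quantile normalization and -0.27 after loess). Natural killer cell markers summed to 5979 in transgenic and 3480 in non-transgenic cells. After median alignment 2 of 5 were at least 2-fold higher, as 4.43% of all genes above the filter were, and 1 was under 0. Gzma, a cytotoxic protease, was at 2771 in transgenic and 1369 in non-transgenic cells (1.02). It did not reach 2-fold with no alignment (0.85), quantile normalization (0.82) or loess (0.80). Prf1, another cytotoxic gene, was at 259 in transgenic and 269 in non-transgenic cells (-0.06), and its other probe set was at -0.50. Dendritic cell markers summed to 3535 in transgenic and 2597 in non-transgenic cells over 6 genes. Most of the difference between these sums lay in Ccr9, a homing receptor, at 1453 in transgenic and 698 in non-transgenic cells (1.06). The other probe sets of Ccr9 were at 0.26, -0.31, 0.51 and 0.98. Xcr1, which defines conventional type 1 cells, lay under the filter on both arrays. Of the 5 dendritic cell markers above the filter 4 had a ratio over 0, as did 6991 of the 10778 genes above the filter. Itgax, which encodes the CD11c that the sort selected against, was at 804 in transgenic and 670.4 in non-transgenic cells (0.26). Zbtb46, also over 0, was at 126 in transgenic and 67.6 in non-transgenic cells (0.89), under the filter in the latter. Its other probe sets were at -0.17, 1.33 and -1.10. The marker under 0 was Siglech, at 830 in transgenic and 882 in non-transgenic cells (-0.09).

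Markers of monocytes and macrophages were split, with 3 of 5 under 0 and a median of -0.06, and summed to 11592 in transgenic and 10413 in non-transgenic cells. Lyz2 was at 5939 in transgenic and 6172 in non-transgenic cells (-0.06). Csf1r, the receptor for macrophage colony-stimulating factor, was higher, at 4090.4 in transgenic and 2584 in non-transgenic cells (0.66), and its other probe sets were higher too. Adgre1 (-0.28) and Cd14 (-0.22) were lower.

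T cell markers went both ways, with 1 of the 5 above the filter at least 2-fold higher, 1 lower by as much and a median of -0.37, and the 6 named genes summed to 1102 in transgenic and 1148 in non-transgenic cells. Cd4 was at 155 in transgenic and 38.4 in non-transgenic cells (2.01), so it passed the filter only through the transgenic array, where it was higher. Its other probe set was under the floor on both arrays and carries no ratio. Thy1, whose product the sort selected against, was at 101 in transgenic and 208 in non-transgenic cells (-1.04). Cd3d was at 349 in transgenic and 315 in non-transgenic cells (0.15, but -0.02 without the alignment), and Cd3e lay under the filter on both arrays.

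The neutrophil markers were also unequal, with a median of 0.47 over 4 genes. The granule gene Ngp was at 1011 in transgenic and 371 in non-transgenic cells (1.45) and Camp, another granule gene, at 365 in transgenic and 185 in non-transgenic cells (0.98). S100a8 was at 3913 in transgenic and 4393 in non-transgenic cells (-0.17) and S100a9 had a ratio of -0.04, and the sums, 8893 in transgenic and 8653 in non-transgenic cells, were mostly made up of these. Plasma cell markers had a median of -0.08 over 5 genes, 3 of them under 0, and summed to 30502.5 in transgenic and 34471 in non-transgenic cells. Jchain was at 18279 in transgenic and 23590 in non-transgenic cells (-0.37), while Xbp1, a transcription factor of secretory cells, was at 8119 in transgenic and 5930 in non-transgenic cells (0.45), and Prdm1 had a ratio of 0.31. Some genes of these cell type lists were added to the one of highest level and were named after their values were seen. They are Ptprc, Prf1, Itgax, Zbtb46, Siglech, Csf1r, Adgre1, Cd14, Cd4, Thy1, Ngp, Camp, S100a9, Xbp1 and Prdm1.

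By its representing probe set, no marker of these lists was under the floor on both arrays. Dendritic cells and macrophages are known to carry CD86 and PD-L1 as B cells do. The sort selected against CD11c, but how many dendritic cells it left was not measured. The part of other cells in the ratios of Cd86 and Cd274, or of the B cell marker difference in those of Btla, Icosl and Cd200, was not tested.

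**Figure D5:**
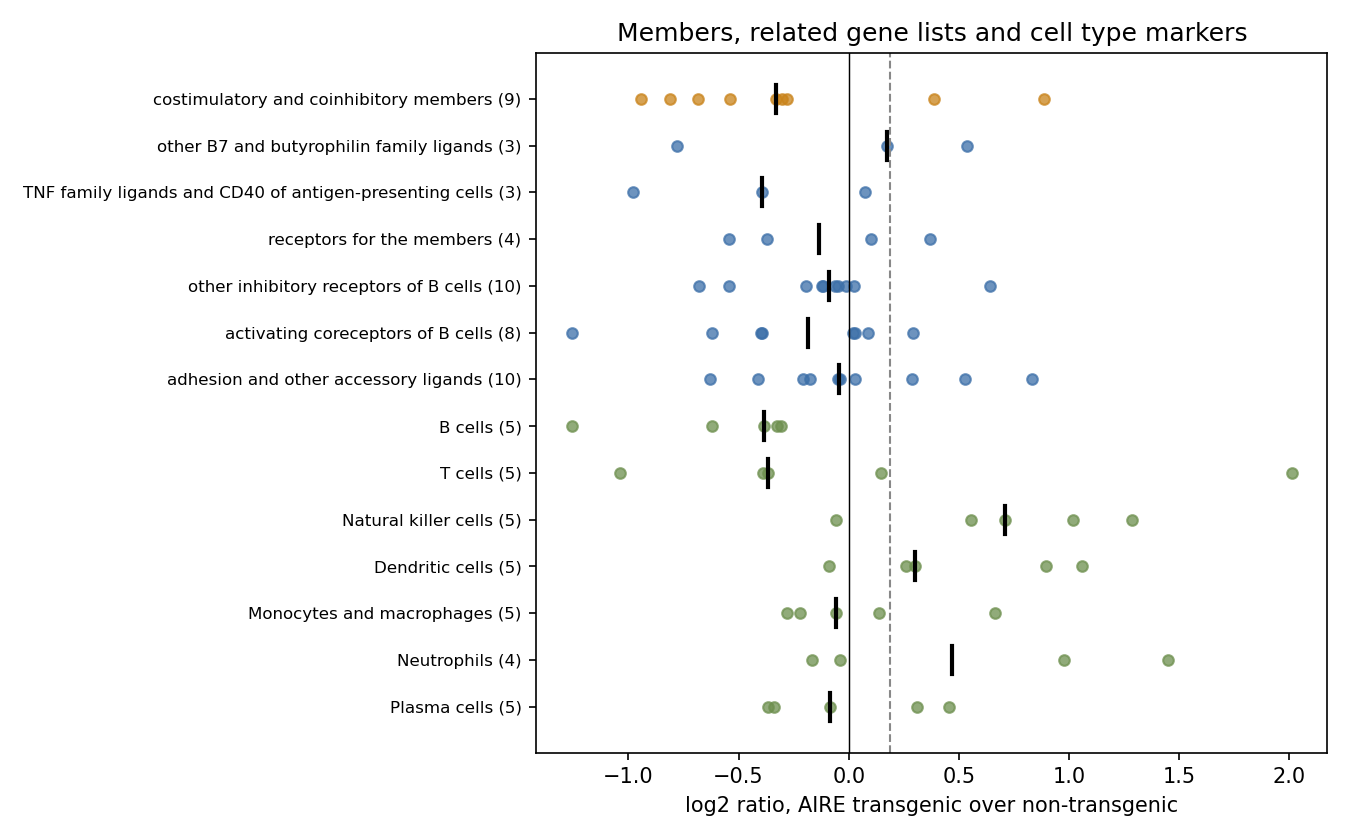
Log2 ratio, AIRE transgenic over non-transgenic, of each gene above the filter (points) and the median (black bar) for the members, 6 related lists and 7 lists of cell type markers, with the number of genes in brackets and the median of all genes (0.19) dashed. The medians of the members (-0.33) and of the B cell markers (-0.38) lie below 0, and that of the natural killer cell markers (0.71) lies above the dashed line.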

How the data were processed

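RNA of sorted B cells was measured on 1 Affymetrix array per group. The deposited values are linear intensities, 1 per probe set, processed by the authors; their computation and scaling are not given in the sources used here. A trimmed mean, 2% off each end, equalled 500.0 on each array. The labels give 2 Tg and 2 non-Tg per sample, read here as mice.

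The 64 control probe sets were set aside. Of the other 45037, 34945 had 1 symbol in the platform's table, 932 several and 9160 none, and those with 1 symbol were named. Because the deposited log2 medians differed by -0.16, over the limit of 0.1, arrays were scaled by 1.06 (transgenic) and 0.947 (non-transgenic). The number of arrays limits the precision, and no detection calls were used. Genes of like level are those above the filter within 2-fold of a member's mean level. All 10 members are given with all their probe sets; of each related list the genes past 2-fold are named, otherwise the 2 of highest level, and of each cell type list the gene of highest level and markers under the filter. The members and lists were chosen with earlier results of these data known. The steps were tested on simulated arrays. Alternatives covered scaling, floor, filter, fold and probe set rules. Python 3.11.15, numpy 2.4.6, pandas 2.3.3, statsmodels 0.14.6 and matplotlib 3.10.9 were used.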

Additional observations from a re-analysis of the deposited data

How the results depend on the processing

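No paired analysis was possible because each group is 1 array with no replicate to pair. With no replicates, a change of a ratio was read against 0.37, the robust SD of 1 probe set estimated from pairs of probe sets of 1 gene. All 9 members kept their sign under each alternative that gave them a value. The floor and filter settings, however, left the ratio of each member they kept as it was. The probe set rules could change only members with more than 1 probe set. Cd86 and Icosl moved by more than 0.37 under 1 alternative: with the probe set of median ratio Cd86 was at 0.23 and Icosl at -1.53. The activating minus inhibitory difference ran from 0.21 to 0.40 over 13 alternatives. Several of these could not change it, such as leaving out the alignment, which shifts the ratios of both classes by the same amount. The count of members at least 2-fold lower was 0, but 1 without the alignment (Btla), 1 after quantile normalization, loess, or with the mean or median-ratio probe set (Icosl in each), and 1 (Btla) with the median ratio of genes above the filter set to 0, an alternative added after seeing the data. At 1.5-fold after median alignment, 1 member was higher and 3 lower. With probe sets of shared sequence (_s_at, _x_at, _a_at) left out Cd80 lay under the filter, and at the 75th percentile filter Cd80 and Pdcd1lg2 did.

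The 477 genes at least 2-fold higher and 344 lower became 292 and 514 without the alignment, 286 and 171 with the floor at the pooled median, 941 and 918 with no filter, 247 and 139 when both arrays had to pass the filter, 170 and 94 with the filter at the 75th percentile, 1879 and 907 at 1.5-fold, 242 and 438 by the median-ratio probe set, and 288 and 505 with the median ratio of genes set to 0.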
